A study of Mus musculus with 29 samples.

Results

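Kinesins are motor proteins that walk along microtubules, most of them towards the plus end, and carry vesicles, mitochondria, receptors and messenger RNA along axons and dendrites. A kinesin-1 motor joins a pair of heavy chains (the KIF5 proteins) with a pair of light chains (the KLC proteins) that bind cargo. Kinesin-2 motors serve cilia and dendrites, kinesin-3 motors carry synaptic vesicle precursors and other vesicles, and several other families act in cell division or on microtubule dynamics. The genes described here are the protein-coding mouse genes whose symbol begins with Kif, Kifc or Klc and a number. There were 40 of them among the 15672 genes in the authors' 4 gene tables. Of these, 39 stood in each CA1 table, of 15115 genes after context plus shock and 15123 after context alone. All 40 stood in each ACC table, of 15455 and 15270 genes. Kifc1 was the member listed in the ACC tables alone. The tables list genes with a mean of about 10 normalised counts or more, so a kinesin gene below that level is not described here.

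The libraries came from hippocampal CA1 taken 1 h after training and from the anterior cingulate cortex (ACC) taken 4 weeks after training, in 3-month-old male mice of the strain written C56BL/6 in the labels, housed one to a cage. Trained mice were placed in a new context and given a footshock of 0.7 mA there (context plus shock) or were placed in it with no shock (context alone), and naive mice were the controls. Each of the 6 groups had 5 libraries, except context plus shock in CA1 with 4, which makes 29 in all. The labels give 3 months as the age of all groups and do not say whether naive mice were kept for the same 4 weeks, so in ACC training and waiting time cannot be told apart. The deposited tables hold each gene's mean over libraries, log2 fold change, p and adjusted p, with no value for a single library. The spread among mice, the overlap of groups and the depth of each library are therefore unknown. Errors given here are 95% intervals implied by each deposited p and fold change. A positive log2 fold change means a higher level in trained mice, read from how the means of paired tables moved with their fold changes. The tissue labels were checked with regional genes: Fibcd1, a CA1 gene, had a mean of 4269.5 and 4061 normalised counts in the CA1 tables and of 140.39 and 127.94 in the ACC tables, while Tbr1, a cortical gene, had 1292.8 and 1327.5 in CA1 and 3829.4 and 3603.4 in ACC.

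The promoters below show the sequence upstream of 5 members that changed in ACC after context plus shock, 3 of them because they hold a cyclic AMP response element, the motif bound by the activity-regulated factor CREB. Each line gives the 250 bases before the RefSeq start in build GRCm38.p6, read 5′ to 3′ on the gene's own strand. Capitals mark matches, on either strand, to the response element TGACGTCA, the GC box GGGCGG, the CCAAT box or the TATA motif TATAAA. The windows are chr2:49619036-49619285 on the plus strand for Kif5c, chr4:138262001-138262250 on the plus strand for Kif17, chr12:111758618-111758867 on the plus strand for Klc1, chr2:153291166-153291415 on the plus strand for Kif3b and chr17:46646081-46646330 on the minus strand for Klc4.
Kif5c: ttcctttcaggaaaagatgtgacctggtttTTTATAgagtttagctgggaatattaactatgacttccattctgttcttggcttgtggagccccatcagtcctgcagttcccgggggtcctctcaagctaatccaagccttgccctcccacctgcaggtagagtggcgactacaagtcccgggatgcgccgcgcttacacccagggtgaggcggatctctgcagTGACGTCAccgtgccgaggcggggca
Kif17: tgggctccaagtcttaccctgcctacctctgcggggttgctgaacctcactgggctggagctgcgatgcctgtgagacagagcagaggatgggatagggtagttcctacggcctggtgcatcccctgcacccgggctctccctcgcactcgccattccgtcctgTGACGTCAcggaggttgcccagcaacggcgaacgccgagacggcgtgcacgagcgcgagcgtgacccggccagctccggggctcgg
Klc1: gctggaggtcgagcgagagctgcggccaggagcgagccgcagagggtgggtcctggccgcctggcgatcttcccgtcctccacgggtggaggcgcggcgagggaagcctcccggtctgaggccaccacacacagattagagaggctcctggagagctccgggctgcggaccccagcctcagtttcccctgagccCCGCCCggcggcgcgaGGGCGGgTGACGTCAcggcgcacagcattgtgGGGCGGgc
Kif3b: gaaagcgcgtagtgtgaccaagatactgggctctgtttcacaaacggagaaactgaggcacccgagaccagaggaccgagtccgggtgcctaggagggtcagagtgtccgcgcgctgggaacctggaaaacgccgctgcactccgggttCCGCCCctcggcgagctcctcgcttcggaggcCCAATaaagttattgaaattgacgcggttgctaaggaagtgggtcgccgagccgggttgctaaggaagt
Klc4: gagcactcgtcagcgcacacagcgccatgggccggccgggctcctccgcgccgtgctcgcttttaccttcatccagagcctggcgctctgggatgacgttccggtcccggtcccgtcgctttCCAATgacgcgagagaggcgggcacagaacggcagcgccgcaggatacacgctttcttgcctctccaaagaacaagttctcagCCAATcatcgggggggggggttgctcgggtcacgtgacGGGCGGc
RefSeq windows were found for 31 members, with 35 promoters. Kif13b, Kif19a, Kif20a, Kif21b, Kif5a, Kif5b, Kifc2, Kifc3 and Klc2 had no entry. The response element TGACGTCA was in 3 of the 35 windows (8.57%), those of Kif5c, Kif17 and Klc1, and in 1.55% of all 32851 windows. The GC box was in 23 windows (65.7%, against 32.7% of all), the CCAAT box in 16 (45.7%, against 33.8%) and TATAAA in 4 (11.4%, against 12.4%). The NRF-1 motif GCATGCGC was in 2 (5.71%, against 2.26%), those of Kif26a and Kif3a. The median GC content was 65.6% in the kinesin windows and 52.4% in all. These matches describe letters and not bound sites, and the kinesin windows were not matched to others on GC content.

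Kif5a, a neuronal kinesin-1 heavy chain, had the highest level of the family per kb of its longest transcript in every table (mean normalised counts of all libraries in the comparison, divided by length). In the authors' deposited table for ACC after context plus shock it averaged 11026 normalised counts per kb. Klc1, the main neuronal light chain, followed with 6592, then the minus-end motor Kifc2 with 4043, the synaptic vesicle precursor motor Kif1a with 3196, the heavy chain Kif5c with 2949 and Kif1b, a motor of mitochondria and synaptic vesicle precursors, with 1720. These 6 genes led in the same order in all 4 tables. The order depends on the transcript chosen: with the median transcript length Kif1a came first, and Klc2 took the place of Kifc2 among the leading 6. At the low end stood Kif24, Kif20b, Kif18a and Kif15, each between 3.03 and 5.12 normalised counts per kb in the same ACC table. Whether neighbours in this order differ beyond their spread cannot be judged without values per library.

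**Figure D1:**
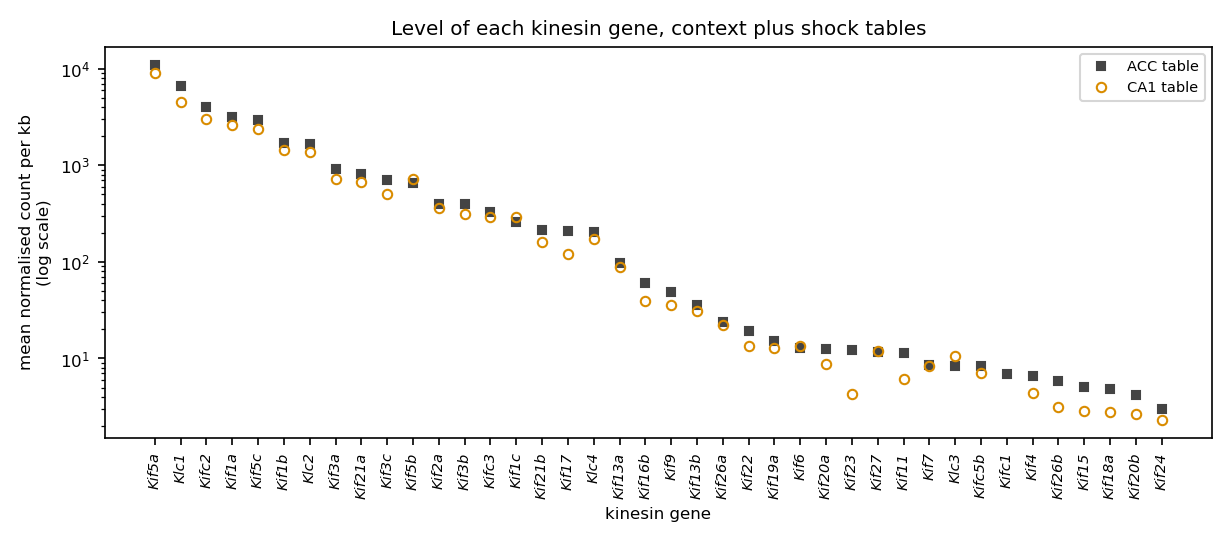
Mean normalised count per kb of longest transcript (log scale) for each kinesin gene, from the context plus shock tables of ACC (filled squares) and CA1 (open circles), ordered by the ACC level. Each point is the authors' mean over all libraries of a comparison, with no error available; Kif5a is highest with 11026 in ACC and 9041 in CA1, and Kifc1 has no CA1 value.

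In CA1 1 h after training, few kinesin genes changed. After context plus shock, the authors' deposited table held 0 of 39 kinesin genes at an adjusted p under 0.05 (the authors' DESeq2 comparison), where 6.05% of all genes were called. At an unadjusted p under 0.05 there were 5, of which Kif3b, Kif3c and Kif5a stood above naive mice and Kif15 and Kifc5b below. Shares of all genes at an unadjusted p under 0.05 were not counted in any comparison. Kif3c, a neuronal kinesin-2 subunit, had a log2 fold change of 0.16 (95% interval 0.039 to 0.28, adjusted p = 0.10). Kif3b, another kinesin-2 subunit, had 0.16 (0.035 to 0.28, adjusted p = 0.118), and Kif5a had 0.19 (0.029 to 0.35, adjusted p = 0.161). The highest values were 0.28 for Kif20b and 0.28 for Kif26a, and the lowest -0.68 for Kifc5b and -0.66 for Kif15, all with an adjusted p of 0.161 or more. The median over the 39 members was 0.01, against -0.01 for all genes.

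After context alone, 3 of 39 kinesin genes rose in CA1 and none fell, a share of 7.69% where 8.03% of all genes were called and 4.62% were called higher. By the authors' deposited table, Kif26b, an unconventional kinesin-11 that binds microtubules with little motor activity, had a log2 fold change of 0.72 (0.34 to 1.09, adjusted p = 0.00636), 1.64 times the naive level. It is a low gene there, with a mean of 56.3 normalised counts. Kif5a rose by a log2 fold change of 0.24 (0.094 to 0.38, adjusted p = 0.0216), and Kif3c by 0.19 (0.073 to 0.31, adjusted p = 0.0256). Kif1a had 0.15 (0.043 to 0.25, adjusted p = 0.0629) and Kif13b 0.38 (0.042 to 0.72, adjusted p = 0.167). The lowest values were -0.44 for Kifc5b and -0.32 for Kif15, with adjusted p of 0.335 and 0.588. The median over the 39 was 0.042, against -0.0036 for all genes. When the trend of fold change with transcript length and GC content over all genes was removed, 0 kinesin genes were called, where 4.13% of all genes were, Kif26b having 0.53 (adjusted p = 0.0917). Of the 7 genes at an unadjusted p under 0.05, all 7 stood above naive mice. The share of all genes at that p was not counted. In this contrast the longest of 10 length groups of all genes had a median log2 fold change of 0.064.

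The CA1 kinesin-1 genes other than Kif5a showed no call in either contrast. Kif5b, the heavy chain used in most tissues, had 0.05 after context plus shock and 0.017 after context alone. Kif5c had 0.08 and 0.068, and Klc1 had 0.04 and 0.049. Klc2, another cargo-binding light chain, had 0.01 and 0.092. Kif17, a dendritic kinesin-2 known for carrying NMDA receptor subunits, had 0.09 and 0.085. Kif1b had 0.01 and 0.042, Kif3a, the shared kinesin-2 subunit, 0.13 and 0.11, and Kif21b, a dendritic kinesin-4, 0.11 and 0.20. Adjusted p for these 8 genes lay at 0.226 or more in the authors' deposited tables. The 3 genes with a response element in the printed promoters, Kif5c, Kif17 and Klc1, are among those not called at 1 h, as are most members. Only 0 of 39 and 3 of 39 kinesin genes were called, and Kif5a, 1 of these 3, has no promoter entry. A part of the response element was not tested. Endothelial markers moved in the same libraries, where 6.05% of all genes were called after context plus shock and 8.03% after context alone. Of 8 markers, 5 rose and 0 fell after context plus shock (Cldn5 by 0.88). After context alone 5 rose and 1 fell (Cldn5 by 0.78). Their part in the kinesin values was not tested.

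**Figure D2:**
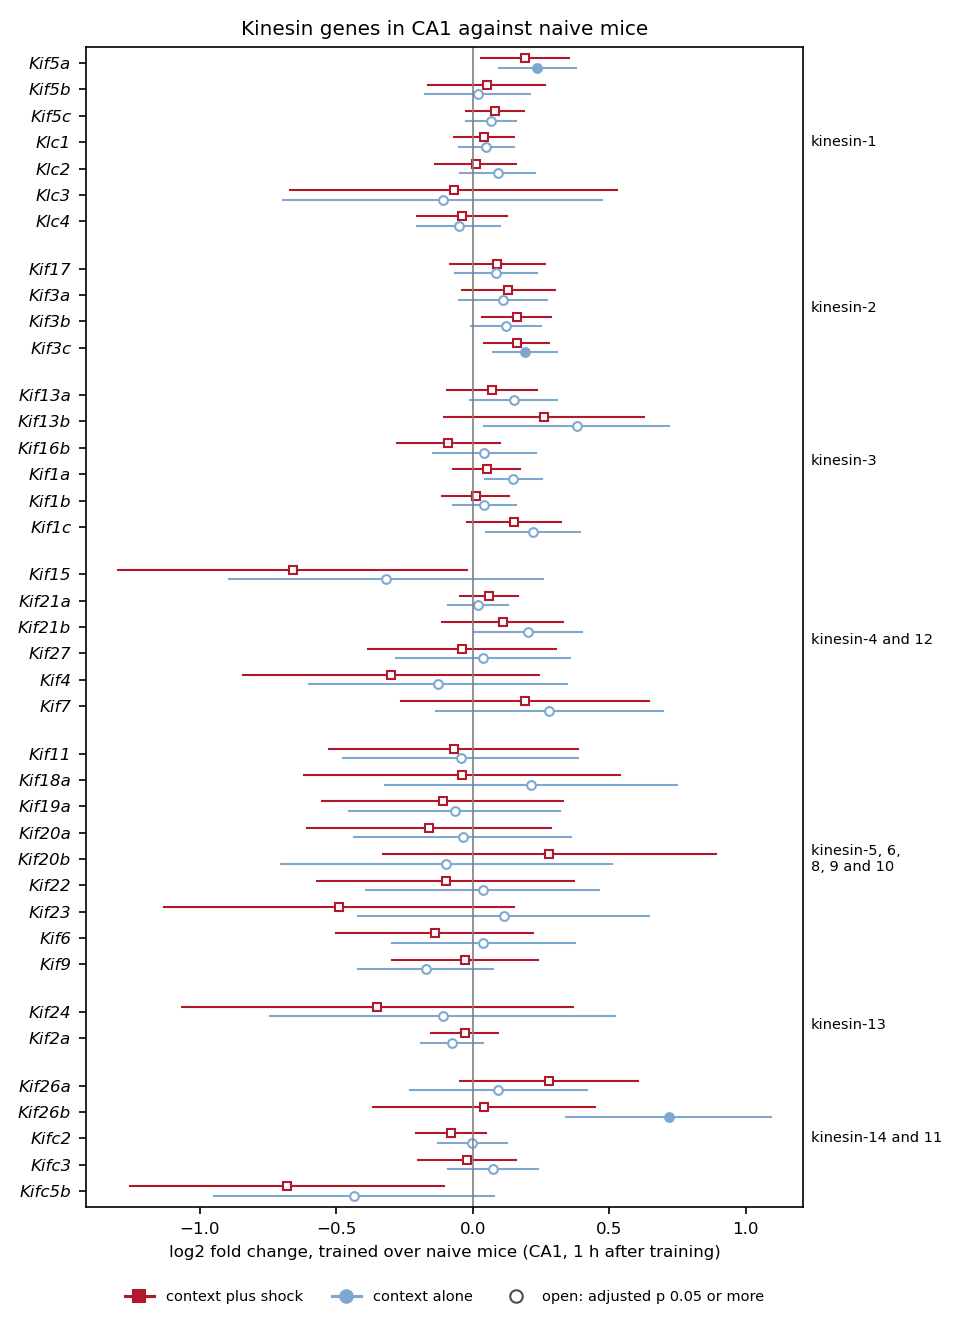
Log2 fold change of each of 39 kinesin genes in CA1, trained over naive mice, with 95% intervals implied by the deposited p; red squares are context plus shock, blue circles context alone, filled where the adjusted p is under 0.05. The 3 filled points, Kif5a, Kif3c and Kif26b, belong to context alone and lie above 0.

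In ACC 4 weeks after context plus shock, the 3 kinesin-1 heavy chains fell and 3 of 4 light chains rose in the authors' deposited table. With the trend of fold change with transcript length and GC content over all genes removed, the 3 heavy chains were still called lower, but of the light chains Klc4 alone was called higher, Klc2 lost its call and Klc1 turned to a called fall (-0.094, adjusted p = 0.00235). Over the whole family 19 of 40 genes were called (47.5%), 13 lower and 6 higher, where 41.6% of all genes were called in the authors' deposited table, 21.8% lower and 19.8% higher. The share called is thus near that of all genes. The median over the 40 members was -0.040, against 0.0063 for all genes. In tissue RNA, fewer cells of a type and less RNA per cell cannot be told apart. Among the 16 members with a mean of at least 1000 normalised counts, 11 were called, 8 lower and 3 higher, where 63.6% of all genes at that level were called.

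Kif5b had the largest fall of the family after context plus shock. Its log2 fold change was -0.72 (-0.83 to -0.61, adjusted p = 3.75e-34), or 1.64-fold lower than in naive mice by the authors' deposited table. Kif5c (chr2:49619298-49774778, mm10, plus strand) fell with a log2 fold change of -0.35 (-0.42 to -0.28, adjusted p = 3.08e-20). Kif5a (chr10:127225696-127263363, minus strand) fell with -0.26 (-0.37 to -0.16, adjusted p = 3.81e-06). Of the light chains, Klc4 (chr17:46630631-46645144, minus strand) rose by 0.41 (0.27 to 0.56, adjusted p = 8.00e-08), to 1.33 times the naive level. Klc2 rose by 0.23 (0.15 to 0.30, adjusted p = 1.48e-08) and Klc1 by 0.068 (0.018 to 0.12, adjusted p = 0.0230). Klc3, a light chain known mainly from testis, had 0.33 with a mean of 16.0 normalised counts (-0.23 to 0.90, adjusted p = 0.373). The heavy chains have longest transcripts of 6032 to 6856 nucleotides and the 3 light chains that rose of 2322 to 3169.

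All 4 kinesin-2 genes were called after context plus shock. Of all genes 41.6% were, or 63.6% of those with a mean of at least 1000. After removal of the trend with length and GC content 2 of 4 were, Kif3a and Kif3b, and the calls of Kif3c (-0.023, adjusted p = 0.631) and Kif17 (0.11, adjusted p = 0.160) were lost. Kif3b fell with a log2 fold change of -0.26 (-0.33 to -0.20, adjusted p = 8.14e-14), Kif3a with -0.12 (-0.19 to -0.045, adjusted p = 0.00546) and Kif3c with -0.11 (-0.17 to -0.058, adjusted p = 3.70e-04), all from the authors' deposited table. Kif17 rose by 0.26 (0.15 to 0.38, adjusted p = 3.17e-05). Its locus overlaps Sh2d5 on the same strand, and the RefSeq promoter printed above lies inside the span of the deposited gene (chr4:138250435-138301967), so its counts are uncertain.

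Of the kinesin-3 family 4 of 6 measured members fell and none rose, where 21.8% of all genes were called lower. Corrected for that trend, 1 of 6, Kif13b, was still called lower, and the calls of Kif1b, Kif16b and Kif13a were lost. Kif1b fell with a log2 fold change of -0.28 (-0.34 to -0.22, adjusted p = 7.96e-18), and Kif13b, a motor that binds the Discs large scaffold, with -0.44 (-0.64 to -0.24, adjusted p = 7.75e-05). Kif16b, an early endosome motor, fell with -0.25 (adjusted p = 0.00339) and Kif13a, a motor of recycling endosomes, with -0.14 (adjusted p = 0.0173). Kif1a, the kinesin-3 gene with the highest level per kb, had -0.022 (-0.066 to 0.022, adjusted p = 0.467) in the authors' deposited table. Its interval is the narrowest of the 40 kinesin genes in that contrast. Kif1c, a motor of dense-core vesicles, had -0.11 (adjusted p = 0.0586).

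Among the other families, Kif2a, a microtubule depolymerase of kinesin-13, fell, its log2 fold change being -0.23 (adjusted p = 5.00e-10). Kifc2 rose by 0.15 (adjusted p = 1.40e-04) in the authors' deposited table. Kif22, a chromosome-binding kinesin-10, rose by 0.36 (adjusted p = 0.0256) and Kif15, a kinesin-12 of dividing cells and growing axons, fell with -0.55 (adjusted p = 0.0397), with means of 68.3 and 24.9 normalised counts. These are 2 of the 10 measured mitotic kinesins, and the other 8 had no call. Of 11 measured markers of dividing cells, 1 was called, Aurka (0.43, adjusted p = 0.0477). Kif26b fell with -0.39 (adjusted p = 0.0181). With the trend of fold change with length and GC content removed, Kif22 was still called higher. The calls of Kif2a (0.0096, adjusted p = 0.884), Kifc2 (-0.013, adjusted p = 0.846), Kif15 (-0.39, adjusted p = 0.224) and Kif26b (-0.20, adjusted p = 0.338) were lost. Kif21a and Kif21b, kinesin-4 proteins that restrain microtubule growth, had -0.090 (adjusted p = 0.0582) and 0.014 (adjusted p = 0.853). The second highest value of the family was 0.37 for Kifc5b (adjusted p = 0.203), a near copy of Kifc1, so the counts of this pair are uncertain. The 15 members without a call that are not named above, most of them low genes of cilia or cell division (Kif4, Kif6, Kif7, Kif9, Kif11, Kif18a, Kif19a, Kif20a, Kif20b, Kif23, Kif24, Kif26a, Kif27, Kifc1 and Kifc3), lay between -0.35 for Kif18a and 0.36 for Kif7, with adjusted p of 0.111 or more. Of the 16 kinesin genes listed as axonal and dendritic motors, 13 were called, 10 lower and 3 higher, with a median of -0.13. Of all genes 41.6% were called, or 49.4% of those with a mean of at least 50 and 63.6% of those with at least 1000. The lowest mean in the list was 315. With the trend of fold change with length and GC content over all genes removed, 7 of the 16 were called, all lower, with a median of -0.072, where 24.4% of all genes were called.

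After context alone, 10 of 40 kinesin genes fell in ACC and none rose, a share of 25% where 19.6% of all genes were called and 10.2% called lower in the authors' deposited table. The median over the 40 was -0.064, against 0.0036 for all genes. Of the 15 members with a mean of at least 1000 normalised counts 8 were called, where 30.8% of all genes at that level were. Kif13b fell most, with a log2 fold change of -0.73 (-0.91 to -0.55, adjusted p = 2.78e-13), or 1.66-fold lower. Kif5b followed with -0.61 (-0.76 to -0.46, adjusted p = 1.45e-13), or 1.53-fold lower. The other heavy chains also fell, Kif5a with -0.27 (adjusted p = 2.40e-05) and Kif5c with -0.20 (adjusted p = 0.00651). With the trend of fold change with length and GC content removed, Kif13b, Kif5b and Kif5a were still called lower. Kif5c lost its call (-0.058, adjusted p = 0.635).

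The remaining falls after context alone were smaller, by the authors' deposited table. None of these falls was still called once the trend with length and GC content was removed. Kif3b fell with -0.23 (adjusted p = 3.10e-04), Kif21b with -0.22 (adjusted p = 0.0238), Kif13a with -0.19 (adjusted p = 0.0358), Kif1b with -0.18 (adjusted p = 0.0101), Kif1c with -0.17 (adjusted p = 0.00898) and Kif3c with -0.11 (adjusted p = 0.0329). No light chain was called: Klc1 had -0.0097, Klc2 0.054, Klc4 0.052 and Klc3 0.22, with adjusted p of 0.671 or more. Kif17 had 0.054 (adjusted p = 0.686), Kif3a -0.073 (adjusted p = 0.456), Kif1a -0.0070 (adjusted p = 0.924) and Kifc2 -0.0060 (adjusted p = 0.970). The highest value was 0.25 for Kif6, a kinesin-9 gene, with an adjusted p of 0.445. The list of axonal and dendritic motors had 9 of 16 genes lower and none higher, with a median of -0.18. Of all genes 19.6% were called, or 23.5% of those with a mean of at least 50 and 30.8% of those with at least 1000. The lowest mean in the list was 265. Corrected for the trend with length and GC content, the list had 3 lower and 1 higher, with a median of -0.062, where 9.88% of all genes were called. None of the 10 measured mitotic kinesins was called.

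**Figure D3:**
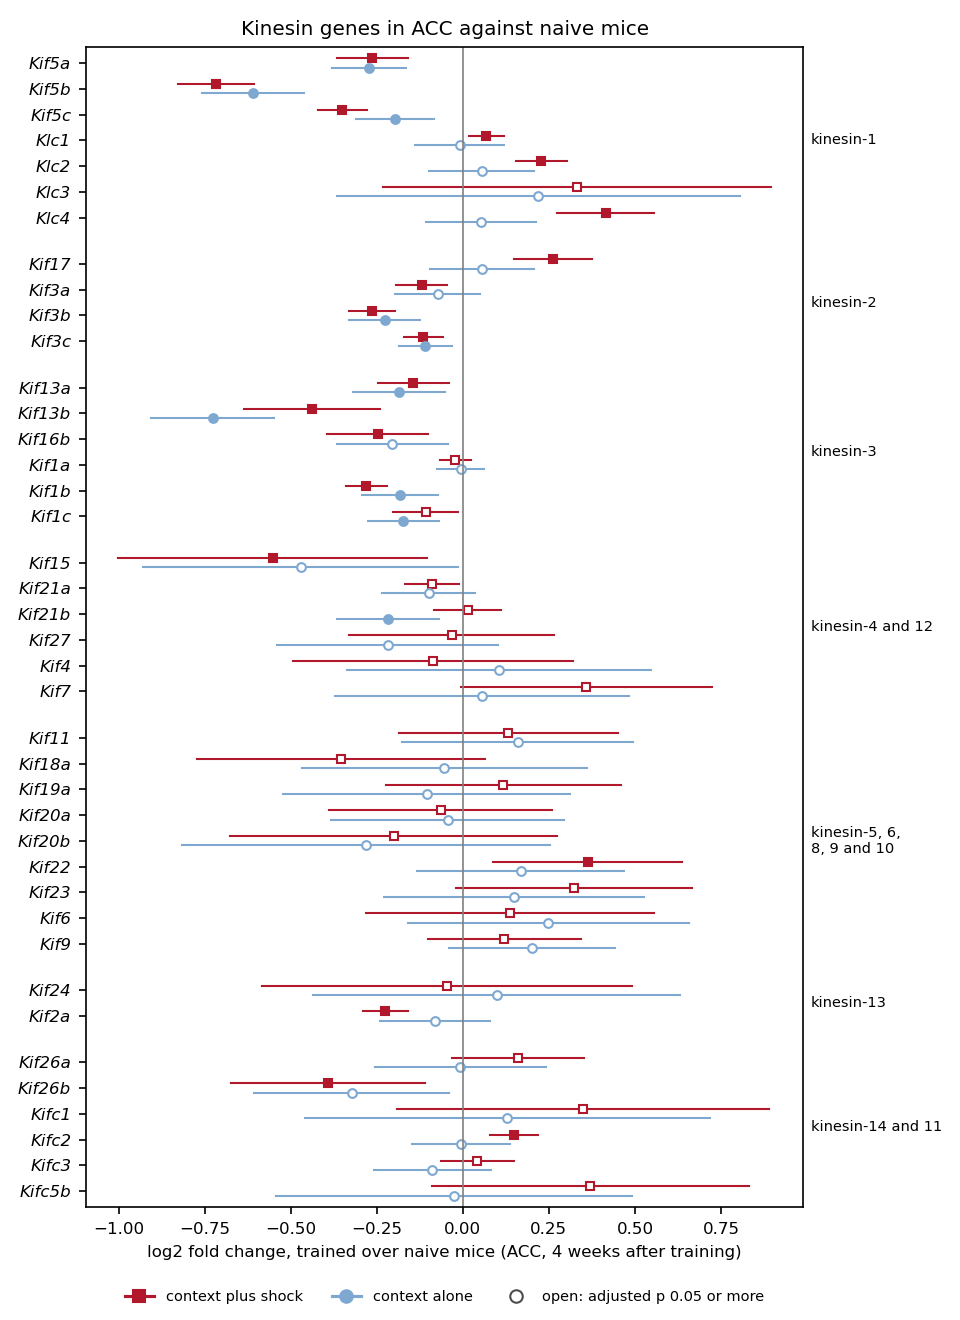
Log2 fold change of each of the 40 kinesin genes in ACC, trained over naive mice, with 95% intervals implied by the deposited p; red squares are context plus shock, blue circles context alone, filled where the adjusted p is under 0.05. Kif5a, Kif5b and Kif5c lie below 0 in both contrasts, while Klc1, Klc2 and Klc4 are filled above 0 for context plus shock and open near 0 for context alone.

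Shock was then compared with context alone as the difference between their fold changes against naive mice. The contrasts share the naive libraries, which this test ignores, so its errors are too wide. In ACC 0 of 40 kinesin genes passed an adjusted p of 0.05 (Benjamini-Hochberg over all genes, normal approximation on implied errors), where 1.59% of all genes did. At an unadjusted p under 0.05 there were 6, with the share of all genes not counted. Klc4 came nearest, with log2 fold changes of 0.41 after context plus shock and 0.052 after context alone, a difference of 0.36 (0.15 to 0.58, adjusted p = 0.0534). Kif21b differed by 0.23 (0.056 to 0.41, adjusted p = 0.216), Kif13b by 0.29 (0.023 to 0.56, adjusted p = 0.361), Kif17 by 0.21 (0.019 to 0.40, adjusted p = 0.353) and Klc2 by 0.17 (0.0039 to 0.34, adjusted p = 0.404). Kif5c was lower with shock, by -0.15 (-0.29 to -0.020, adjusted p = 0.328). Kif5a differed by 0.0096 (-0.14 to 0.16) and Kif5b by -0.11 (-0.29 to 0.077). With a correlation of 0.5 assumed between the errors, Klc4, Kif21b, Kif13b and Kif17 were called higher with shock and Kif5c lower, 5 of 40 where 10.5% of all genes were called. So for Klc1 and Klc2 the call after context plus shock but not after context alone is not shown to be a difference between the trainings. For Klc4 the answer depends on how the shared naive libraries are treated and on the filter on low genes. With the errors summed, Klc4 was called when only means of 50 or more were kept, where 2.02% of all genes were. With the trend of fold change with length and GC content removed and the errors summed, 0 of 40 were called.

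In CA1 the same comparison called 0 of 39 kinesin genes, where 0.00665% of all genes were called. Kif26b was the single member at an unadjusted p under 0.05, with 0.04 after context plus shock and 0.72 after context alone, a difference of -0.68 (-1.23 to -0.12, adjusted p = 1.00). For Kif5a the difference was -0.046 (-0.26 to 0.17), and for Kif3c -0.031 (-0.20 to 0.14).

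The ACC fold changes followed transcript length in the kinesin family as over all genes. The rank correlation of log2 fold change with the length of the longest transcript was -0.67 over the 40 members after context plus shock and -0.61 after context alone, against -0.45 and -0.49 over all genes. In CA1 it ran the other way, with 0.46 after context plus shock and 0.52 after context alone over 39 members, against 0.088 and 0.16 over all genes. These describe genes measured in the same libraries. After context plus shock in ACC, the 13 genes that fell had a median length of 6404 nucleotides and 48.3% GC, the 6 that rose 3194 nucleotides and 59.3% GC, and the 21 not called 4819 nucleotides. All genes in that table had a median of 3354 nucleotides. In the median, the genes that fell were thus longer and poorer in GC than those that rose. Not every long gene fell: Kif1a (8206 nucleotides) and Kif21b (9254) were not called. The rank correlation with GC content over the 40 members was 0.59 after context plus shock and 0.26 after context alone. Length, GC content and role cannot be told apart between heavy and light chains here.

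Removing the trend of fold change with length and GC content over all genes left 9 of 40 kinesin genes called after context plus shock in ACC, where 24.4% of all genes were called. The 7 lower ones were Kif5b (-0.49, adjusted p = 1.63e-15), Kif13b (-0.31), Kif5a (-0.23), Kif5c (-0.18), Kif3b (-0.16), Kif3a (-0.11) and Klc1 (-0.094, adjusted p = 0.00235), whose sign turned. The 2 higher ones were Kif22 (0.37) and Klc4 (0.22, adjusted p = 0.0141). Klc2 then had 0.062 (adjusted p = 0.240), Kif17 0.11 (adjusted p = 0.160) and Kif1b -0.046 (adjusted p = 0.308). After context alone 4 of 40 were called, where 9.88% of all genes were: Kif13b (-0.55), Kif5b (-0.48) and Kif5a (-0.17) were lower, and Kif1a was higher (0.15, adjusted p = 4.97e-04). The falls of Kif5a, Kif5b and Kif13b in ACC were thus called in both contrasts as deposited and with the trend removed. Both contrasts use the same naive libraries, so a call in both is not a repeat of the result. Klc4 was the light chain still called higher, after context plus shock.

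**Figure D4:**
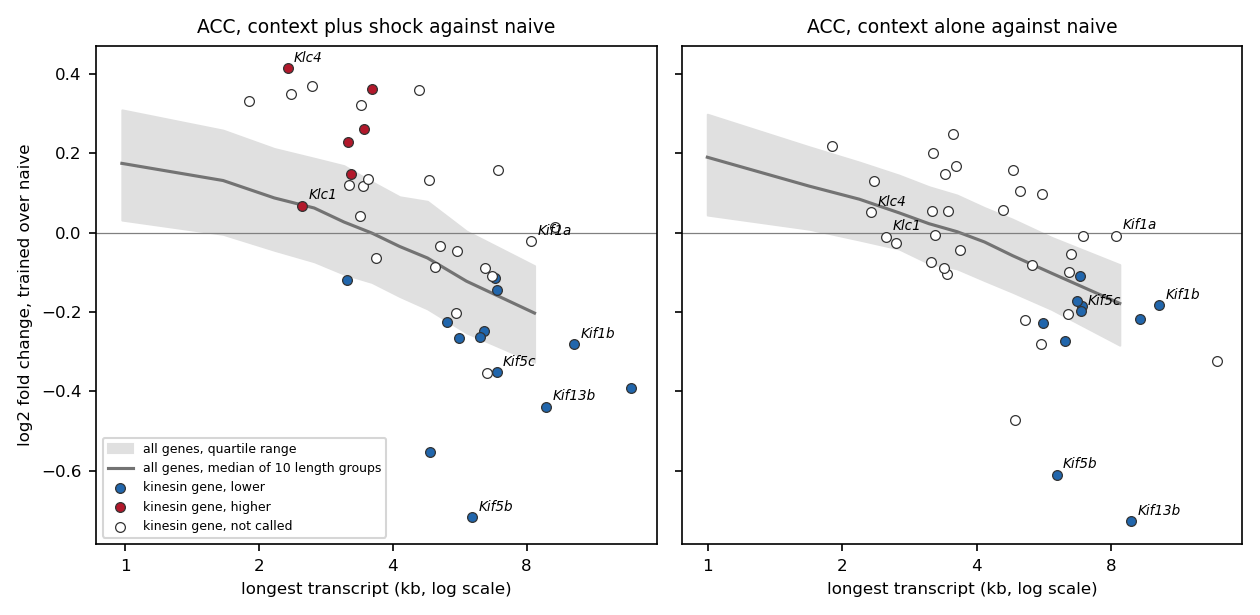
Log2 fold change in ACC, trained over naive mice, against the longest transcript (log scale), for context plus shock (left) and context alone (right). Points are the 40 kinesin genes, blue where lower, red where higher and white where not called; the grey line and band are the median and quartile range of all genes in 10 length groups, and Kif5b lies below the band in both panels.

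Exonic bins of kinesin genes passed the threshold in ACC, and none did in CA1, though the difference between regions was not tested. A bin is a stretch of exon counted on its own. Its fold change is taken here to stand relative to its gene, which the headers do not say. Kif5b fell with -0.72 as a gene while its bin E001 had 0.19 after context plus shock. Some called bins have fold changes near 0, such as E011 of Kif5a after context alone with -0.0025 (deposited adjusted p = 0.0202). The p may thus not test the printed fold change, and counts of higher and lower bins go by its sign alone. In CA1, 0 kinesin bins had an adjusted p under 0.05 in the authors' deposited tables. In ACC after context plus shock there were 60 such bins in 10 kinesin genes, 9 higher and 51 lower, where 9.40% of all genes had at least 1 and bins of all genes numbered 1430 higher and 676 lower. After context alone there were 91 in 14 genes, 15 higher and 76 lower, where 15.6% of all genes had at least 1 and bins of all genes numbered 2404 higher and 1343 lower. The shares with a called bin among genes of a like mean or number of bins were not counted. Most of the lower kinesin bins belong to the 4 genes that follow, and bins of 1 gene are not independent. Kif1a held 17 and 25 of the called bins, Kif5a 15 and 19, Kif1b 13 and 20, and Kif5c 7 and 12.

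In the genes with several called bins, the higher one lay towards the 3′ end. In a gene with a single called bin no such position can be read, so the counts are over the 6 genes after context plus shock and the 8 after context alone that had more than 1 called bin. Taking bin numbers to run along the chromosome, a higher bin was the last of its gene's called bins in transcript order in 6 of 6 cases after context plus shock and in 8 of 9 after context alone. The higher bin also had the largest mean of those called in 6 of 6 and in 8 of 8 genes. These positions and means were not counted over all genes, so they are not shown to be particular to kinesin genes. In the authors' deposited tables, bin E001 of Kif5a, a minus-strand gene, had 0.12 after context plus shock (adjusted p = 2.73e-15) and 0.14 after context alone (adjusted p = 2.26e-31). Kif1a, whose level as a gene was not called, had 0.18 and 0.25 in its bin E001, and its 16 and 24 lower bins reached -0.38 and -0.41. Kif5c, on the plus strand, had 0.15 and 0.17 in bin E037. The lower bins of Kif1a lay between bins 40 and 70 after context plus shock and between 38 and 70 after context alone, on the 5′ side of bin E001. Values of RNA integrity were not analysed here, and the part of RNA quality or of 3′ coverage in these bins and in the length trend was not tested.

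**Figure D5:**
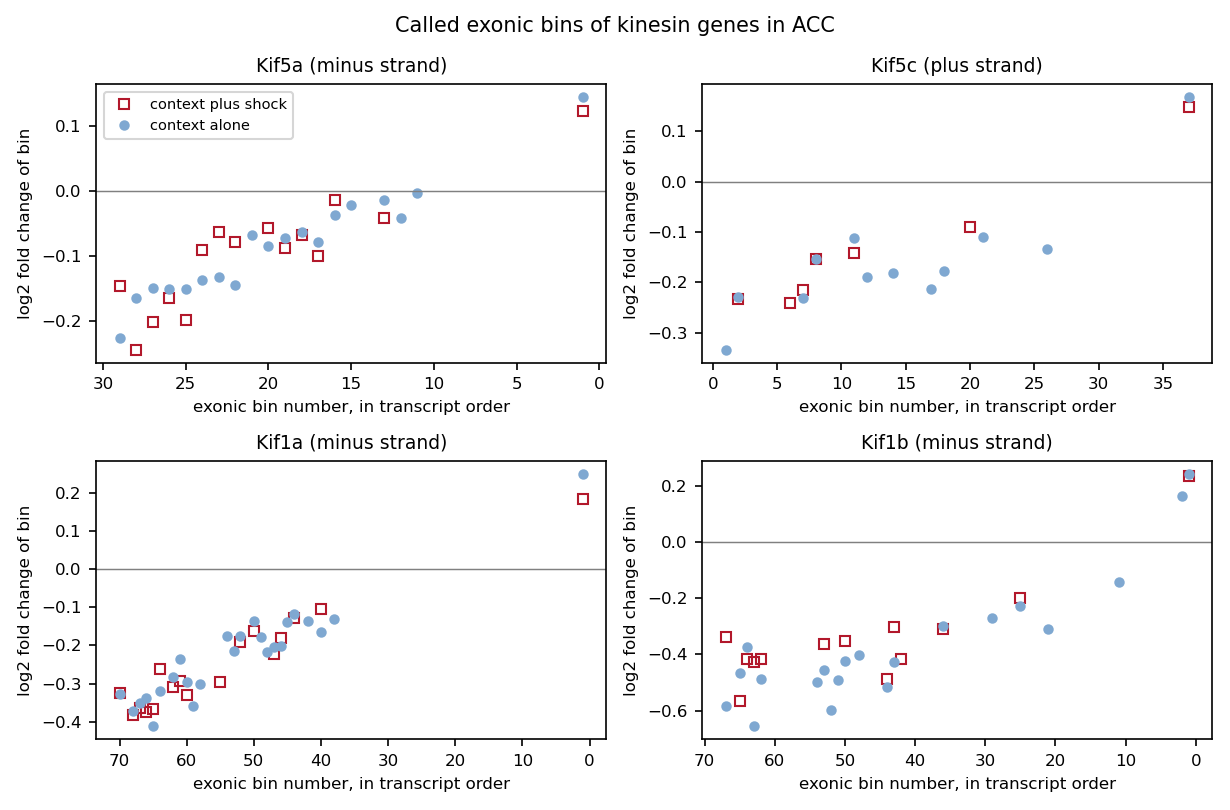
Log2 fold change, taken as relative to the gene, of each exonic bin with an adjusted p under 0.05 in Kif5a, Kif5c, Kif1a and Kif1b in ACC, trained over naive mice, against bin number arranged from the 5′ end (left) to the 3′ end (right). Open red squares are context plus shock and filled blue circles context alone; bins above 0 stand at the right end of each panel, and Kif1a has 17 squares and 25 circles.

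Other transport genes in ACC moved in both directions. The counts stand beside 41.6% of all genes called after context plus shock and 19.6% after context alone, or 24.4% and 9.88% after removal of the trend with length and GC content. Of 35 adaptors and cargo linkers, 21 were called after context plus shock (7 higher, 14 lower) and 11 after context alone (3 higher, 8 lower). With the trend removed the balance turned after context plus shock, with 10 higher and 5 lower, and was 2 higher and 3 lower after context alone. The mitochondrial adaptor Trak2 fell with -0.36 and -0.30, the dynein and kinesin adaptor Bicd1 with -0.52 and -0.49, and Hap1, a huntingtin-associated adaptor, rose by 0.45 and 0.33. Of 27 dynein and dynactin subunits, 14 were called after context plus shock (9 higher, 5 lower) and 5 after context alone, all higher. With the trend removed 6 were higher and 1 lower after context plus shock, and 5 higher after context alone. Dynll1, a dynein light chain, rose by 0.28 and 0.25. Of 15 measured tubulins, 12 rose and none fell after context plus shock, and 5 rose after context alone, with medians of 0.24 and 0.17. Tuba4a, an alpha-tubulin, rose by 0.29 and 0.23. With the trend removed 4 and 2 tubulins were called higher. Of 30 microtubule-associated proteins 19 (6 higher, 13 lower) and 10 (4 higher, 6 lower) were called, with Map1a at -0.26 and -0.31. With the trend removed their balance turned in both contrasts, to 8 higher and 6 lower after context plus shock and 2 higher and 0 lower after context alone. Of 15 unconventional myosins, the actin motors, 9 (2 higher, 7 lower) and 7 (all lower) were called, with Myo5a at -0.35 and -0.24, and with the trend removed 4 (2 higher, 2 lower) and 2 (both lower). The values other than those with the trend removed come from the authors' deposited tables.

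In CA1 the transport lists stand beside 6.05% of all genes called after context plus shock and 8.03% after context alone. Of the 35 adaptors 1 rose after context plus shock (Kidins220, 0.24) and 5 were called after context alone, where Clstn3, Mapk8ip3, Trak1 and Kidins220 rose by 0.15 to 0.19 and Bicd1 fell with -0.20. No adaptor was called in either contrast once that trend was removed, where 4.13% of all genes were called after context alone. Of the 27 dynein and dynactin subunits 3 were called after context plus shock (2 higher, 1 lower) and 4 after context alone (2 higher, 2 lower), or 2 (both higher) and 2 (1 higher, 1 lower) with the trend removed. Of the 30 microtubule-associated proteins 2 were called in each contrast, and of the 15 unconventional myosins 1 and 0. No tubulin was called in either contrast. Dcx, a microtubule-binding protein of immature neurons, fell with -0.40 and -0.48 in the authors' deposited tables.

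Markers of other cell types were set beside the ACC values. Of all genes 41.6% were called after context plus shock and 19.6% after context alone. With the trend of fold change with length and GC content removed, the shares were 24.4% and 9.88%. Slc17a7, the vesicular glutamate transporter of excitatory neurons, rose by 0.19 after context plus shock and had 0.16 after context alone (adjusted p = 0.129). Of 8 interneuron markers 2 (both lower) were called after context plus shock and 3 (1 higher, 2 lower) after context alone, with Gad2 at -0.37 and -0.25. Endothelial markers numbered 1 higher and 5 lower of 8 after context plus shock, and 1 higher after context alone. Microglial markers rose in 4 and 5 of 8, with Aif1 at 0.44 and 0.59. Astrocyte markers numbered 1 higher and 3 lower, and 2 higher and 1 lower, of 8. Oligodendrocyte markers numbered 2 higher and 2 lower of 10, and 0. Of the 8 and 7 measured ependymal and choroid plexus markers 2 (Rsph1 higher, Ttr lower) and 0 were called. With the trend removed, microglial markers numbered 1 and 2 higher, and interneuron markers 4 and 1 lower. Endothelial markers were then 1 higher and 6 lower, and 1 higher. Astrocyte markers were 1 higher and 1 lower, and 1 higher, and oligodendrocyte markers 1 higher and 4 lower, and 0. Of the ependymal and choroid plexus markers 1 (lower) and 0 were then called. Their part in the kinesin values was not tested. No source here gives the strand of counting, so the values of members that overlap a gene on the opposite strand, such as Kif2a with Dimt1, Kifc2 with Cyhr1 and Klc1 with Xrcc3, are uncertain, as are those of Kif5b, Kif3c, Kif22, Kif26b and Klc2, which overlap antisense transcripts.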

How the data were processed

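Libraries were made with the TruSeq RNA v2 kit from polyA RNA of CA1 or ACC, per the labels' protocols. DESeq2, STAR 2.3.0e, CASAVA 1.8.2, SAMtools and the build mm10 stand in the submitters' processing notes; which did what, with which annotation and on which strand, is not given in the sources used here. The authors deposited, per the file headers, for each gene, and for listed exonic bins, the log2 fold change of trained against naive mice, its p-value, as given and adjusted, and the mean normalised count signal. No count model could be run and depth is unknown. The labels do not say that all libraries of a group came from separate mice, so the p-values may measure technical spread in part.

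Members were joined by gene ID. Called means an adjusted p in the deposited table under 0.05. Members were set beside all genes of the same table, with no test over the list. Implied errors are the log2 fold change over the p's normal score, as a Wald test would have it. The table of CA1 after context plus shock is rounded to 2 decimals, so its 3650 genes below 0.05 in absolute log2 took the error of context alone times 1.08. Shock minus context used the root of the summed squared errors. The headers do not give the direction of a fold change: across genes the log2 ratio of a region's means rose with the difference of its fold changes, the slope being 0.47 for CA1 and 0.52 for ACC. Lengths and GC came from the longest transcript in GENCODE M21, and subtracting splines in both, with 5 knots, was an alternative. All 40 members overlap the M21 gene of the same ID. Steps were tested on simulated data with Python 3.11.15, numpy 2.4.6, pandas 2.3.3, scipy 1.17.1 and scikit-learn 1.9.0; figures used matplotlib 3.10.9.

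The text names called members with the smallest p, the 6 members with the highest level, 10 neuronal motors, the 2 highest and 2 lowest fold changes, and up to 4 called genes of each other list; further members are named to account for the family. Members and lists were chosen with earlier results of these data known. Alternatives were other thresholds, filters on low genes, centring and the trend. The list of excitatory neuron markers is not reported here as a whole.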

Additional observations from a re-analysis of the deposited data

How the results depend on the processing

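Counts of called kinesin genes depended on the threshold and on the length and GC trend, as did those of all genes. For CA1 after context alone, where 3 were called, there was 1 at an adjusted p under 0.01, 1 with an absolute log2 fold change of at least 0.25 and 0 with the trend removed. At these settings 3.43%, 4.83% and 4.13% of all genes were called, against 8.03% as deposited. For ACC after context alone, where 10 were called, there were 6, 3 and 4. The shares of all genes were 11.8%, 11.1% and 9.88%, against 19.6% as deposited. For ACC after context plus shock, where 19 were called, there were 11 with a fold change of at least 0.25, 9 with the trend removed, and 11 of 16 when only means of 1000 or more were kept, a filter chosen after seeing the data. The shares of all genes were 20.4%, 24.4% and 63.6%, against 41.6% as deposited. With the trend removed, the sign turned for Kif1b (0.044) and Kif3c (0.010) after context alone, and for Kif2a (0.0096), Kifc2 (-0.013) and Klc1 (-0.094) after context plus shock. The trend was fitted over all genes, and its cause was not tested. Subtracting the median of all genes left every named call of these contrasts on its side. Of shock minus context in ACC, where 0 were called, 5 were with a correlation of 0.5 between the errors and 1, Klc4, when only means of 50 or more were kept. Of all genes 10.5% and 2.02% were called at these settings. Of the kinesin exonic bins in CA1 after context alone, 1 (in Kif5c) was listed at an adjusted p under 0.1 and 0 under 0.05. No paired analysis was possible because the tables hold no values per library, and leaving out a replicate was not run for the same reason. Of 17 members with a mean under 100 in ACC, 3 were called after context plus shock and 0 after context alone. The share of all genes below that mean was not counted.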
